A study of Ovis aries with 4 samples.

Results

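ACACA, ME1 and SCD5 are enzymes of fatty acid synthesis, and they were chosen by name. Their 3 rows (ENSOARG00000000829, ENSOARG00000007496 and ENSOARG00000001249) were found among the 20150 genes of the deposited tables, of which 774 carried a symbol. The mammary glands of 4 lactating sheep (Ovis aries) were each profiled in 1 library of 10x droplet single-cell RNA sequencing. Titles give the groups LH and LL, with replicates 1 and 2 of each. The series abbreviates late lactation as LL, and LH was read as its other stage, peak lactation, by elimination. The labels give no breed, age or treatment, and n = 2 ewes per stage throughout.

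Milk fat is made in the luminal (secretory) epithelium of the gland, partly from fatty acids that the cell builds itself and partly from fatty acids taken up from blood. ACACA (acetyl-CoA carboxylase alpha) makes malonyl-CoA, the chain-extending unit of fatty acid synthase, and is the committed and regulated step. ME1 (cytosolic malic enzyme) turns malate into pyruvate and yields NADPH, the reductant that each round of chain extension consumes. SCD5 is a stearoyl-CoA desaturase, the second isoform beside SCD, and puts a double bond into saturated fatty acids. In ruminants the carbon comes mainly from acetate and not from glucose through citrate cleavage by ACLY, and cytosolic isocitrate dehydrogenase, IDH1, is regarded as a main source of NADPH in the udder.

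Cells were assigned by UMI (unique molecular identifier) counts of marker genes that did not include the members. Luminal cells had at least 1 UMI of EPCAM or CLDN4, a cell adhesion and a tight junction gene of epithelium. LH held 407 and 2330 of them, and LL 845 and 2138. Luminal cells with more UMIs of LTF (lactoferrin, an iron-binding milk protein) than of SPP1 (osteopontin, a secreted phosphoprotein of milk) numbered 34 and 185 in LH, against 323 and 1493 in LL. The other gates were CD3E, CD247 and LCK for T cells, C1QA and MRC1 for macrophages, DCN for fibroblasts, EDNRA (the endothelin A receptor) with IGFBP7, which was given no cell type, RELN (reelin, also made by lymphatic endothelium), SELP, SELE and KDR of blood endothelium, and IDO1 with IGFBP6 or CCN2. Levels are UMIs summed over the cells of a gate in a library and scaled to a total of 1000000 UMIs (CPM), and a level was ranked or tested only where a library held at least 50 such cells.

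The libraries held 5955 to 12733 barcodes and 28015149 to 65339993 UMIs, and each pair of libraries shared 15 to 39 barcode sequences. LH replicate 1 stood apart in its cells. T cell-gated cells made up 25.5% of its kept cells and 3.08% to 3.90% of those of the other libraries, and its luminal gate carried more T and NK cell RNA. The summed level of 6 T and NK cell markers in luminal cells was 423 CPM in LH replicate 1, 67.9 CPM in LH replicate 2, 132 CPM in LL replicate 1 and 58.5 CPM in LL replicate 2, against 2603 to 3959 CPM in T cell-gated cells. A single marker, XCL1, made up most of the luminal sums, with 394, 61.3, 122 and 53.7 CPM in the same order of libraries. In each library the sum was higher in luminal-gated cells with no UMI of LTF or SPP1 (372 to 2715 CPM) than in those with LTF above SPP1 or SPP1 above LTF. The cells with neither numbered 142 and 173 in LH, against 311 and 253 in LL. In LH replicate 1 these cells had the 2715 CPM, and 29.9 CPM of CLDN7, an epithelial claudin, so they did not bear out the luminal label. Luminal cells as a whole had 411 to 587 CPM of CLDN7, which the gate did not use, in the 4 libraries. Casein RNA was low for a lactating gland apart from CSN3 in LL replicate 1 (652 CPM, against 4.59 to 7.31 CPM in the others), and CSN1S1, CSN1S2, CSN2 and LALBA were at 0 in luminal cells of LH replicate 1.

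ACACA was highest in luminal cells. Its level there was 137 CPM and 107 CPM in LH replicates 1 and 2 and 189 CPM and 150 CPM in LL replicates 1 and 2, or 146 ± 34.1 CPM (SD, n = 4 ewes). T cell-gated cells gave 27.0, 27.6, 27.7 and 29.1 CPM in the same order of libraries, the narrowest spread of any gate with 4 libraries (27.8 ± 0.915 CPM). Macrophage-gated cells gave 37.6 and 33.0 CPM in LH, with 25.6 and 20.2 CPM in LL. EDNRA/IGFBP7 cells gave 30.1 and 43.9 CPM in LH, with 43.1 and 40.2 CPM in LL. Luminal levels lay above those of these 3 gates in every library. So did those of 40% of genes tested against T cell-gated, 31% against macrophage-gated and 29.1% against EDNRA/IGFBP7 cells. No luminal library overlapped with any library of theirs for ACACA, a rule whose share over all genes was not counted. Fibroblast-gated cells were intermediate at 38.9 CPM in LH replicate 1, 71.3 CPM in LL replicate 1 and 79.2 CPM in LL replicate 2. The 547 SELP/SELE/KDR cells of LL replicate 1 gave 61.2 CPM. RELN cells gave 37.1 and 51.3 CPM in LL replicates 1 and 2, and the 58 such cells of LH replicate 2 gave 142 CPM from 20 UMIs. This value lay above the 107 CPM of luminal cells of that library, but its exact Poisson 95% interval, 86.7 to 219 CPM, included that level. The 58 cells also differed in markers. EDNRA and IGFBP7 summed to 2166 CPM in them, against 331.5 and 188 CPM in RELN cells of LL replicates 1 and 2. KDR, SELP and SELE summed to 21.3 CPM, against 127 and 122 CPM. The part of these cells' make-up in the ACACA level was not tested.

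**Figure D1:**
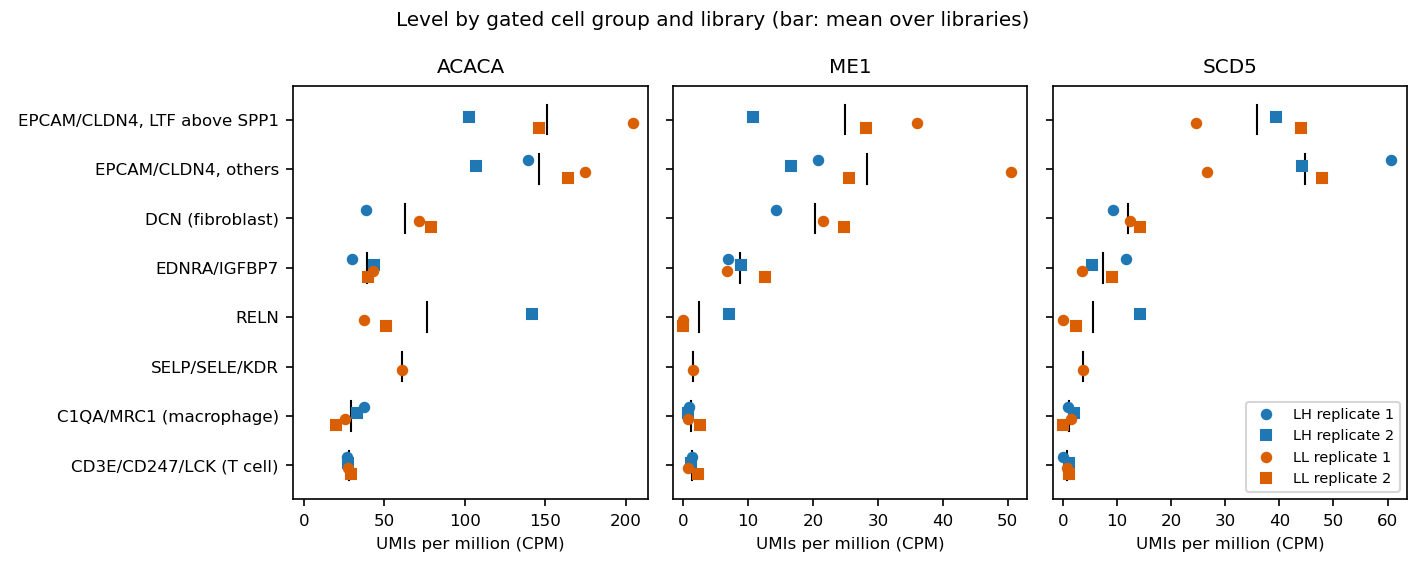
Level of each enzyme in CPM (horizontal axis) by gated cell group (rows); points are libraries that held at least 50 cells of the group, circles and squares are replicates 1 and 2, and black bars are means over those libraries. For ACACA the luminal rows sit between 103 and 204 CPM, while T cell-gated cells sit between 27.0 and 29.1 CPM.

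ME1 set luminal and fibroblast-gated cells apart from the other gates. Its luminal level was 19.6 CPM and 16.2 CPM in LH, with 43.7 CPM and 27.6 CPM in LL. Fibroblast-gated cells gave 14.3 CPM in LH replicate 1 and 21.6 and 24.8 CPM in LL replicates 1 and 2, below the luminal level of the same library each time, while both LL values lay within the luminal range as a whole. EDNRA/IGFBP7 cells followed with 6.95 and 8.93 CPM in LH, with 6.69 and 12.6 CPM in LL. In immune cells ME1 was close to 0: 11 UMIs were counted in 2445 T cell-gated cells and 4 UMIs in 982 macrophage-gated cells, or 0.748 to 2.33 CPM and 0.674 to 2.52 CPM by library. SELP/SELE/KDR cells of LL replicate 1 had 1.56 CPM, and RELN cells had 1 UMI in 446 cells.

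SCD5 was at or near 0 in immune cells and low in the other gates. Luminal cells gave 61.6 CPM and 43.9 CPM in LH, with 25.6 CPM and 44.8 CPM in LL, so LH replicate 1 was high and LL replicate 1 low, and the stages overlapped. T cell-gated cells held 3 UMIs in all and none in the 1418 cells of LH replicate 1, whose 5487273 UMIs allow up to 0.547 CPM. Macrophage-gated cells held 6 UMIs. Fibroblast-gated cells gave 9.22, 12.4 and 14.3 CPM in LH replicate 1 and LL replicates 1 and 2, and EDNRA/IGFBP7 cells gave 11.6 and 5.31 CPM in LH, with 3.48 and 9.03 CPM in LL. Every luminal library lay above every library of these gates. The share of all genes that met this rule was not counted. By the looser rule of a higher level within every library, 29% (fibroblast) to 40% (T cell) of genes tested were higher in luminal cells.

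By mean level over libraries, the order for ACACA was luminal cells with LTF above SPP1 (151 CPM), other luminal cells (146 CPM), RELN (76.8 CPM), fibroblast (63.1 CPM), SELP/SELE/KDR (61.2 CPM), EDNRA/IGFBP7 (39.3 CPM), macrophage (29.1 CPM) and T cell gates (27.8 CPM). Neighbours in this order overlapped in their libraries except SELP/SELE/KDR cells, which had 1 library, and the EDNRA/IGFBP7 cells after them. For ME1 the order was other luminal cells (28.4 CPM), luminal cells with LTF above SPP1 (24.97 CPM), fibroblast (20.2 CPM), EDNRA/IGFBP7 (8.80 CPM), RELN (2.37 CPM), SELP/SELE/KDR (1.56 CPM), T cell (1.39 CPM) and macrophage gates (1.20 CPM), with a gap only between fibroblast-gated and EDNRA/IGFBP7 cells. SCD5 had the order other luminal cells (44.8 CPM), luminal cells with LTF above SPP1 (36.0 CPM), fibroblast (11.99 CPM), EDNRA/IGFBP7 (7.35 CPM), RELN (5.55 CPM), SELP/SELE/KDR (3.63 CPM), macrophage (1.08 CPM) and T cell gates (0.778 CPM). Its libraries left a gap between luminal and fibroblast-gated cells and between SELP/SELE/KDR and macrophage-gated cells. The shares of all genes with such gaps were not counted.

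Within ewes, all 3 enzymes were higher in luminal cells than in each of 5 other gates by edgeR's quasi-likelihood test with the ewe as a block and Benjamini-Hochberg adjustment over all genes of a fit. Such calls were common, since luminal cells were higher for 32.3% of genes against T cell-gated cells, 22.1% against macrophage-gated cells, 27.2% against fibroblast-gated cells, 27.9% against EDNRA/IGFBP7 cells and 12.4% against RELN cells. The luminal cells also had deeper libraries, with median UMIs per cell of 8072 to 8785 against 2566 to 3456 in T cell-gated cells. Against T cells the ACACA difference was log2 2.27 ± 0.15 (SE, adjusted p = 1.4e-05), a fold of 4.82, and that of ME1 was log2 4.06 ± 0.34 (adjusted p = 3.1e-05). For SCD5 the 3 UMIs of T cells make a fitted fold unsafe, and the ratio of summed levels was 123 with a counting interval of 41.9 to 595 (adjusted p = 2.9e-05); without LH replicate 1, the library with no T cell UMI, the fitted log2 difference went from 6.87 to 5.12, and without the doublet caller to 4.93. Against macrophages the differences were log2 2.23 ± 0.28 for ACACA, 4.74 ± 0.42 for ME1 and 4.91 ± 0.42 for SCD5, each higher in 4 of 4 libraries. Against EDNRA/IGFBP7 cells they were log2 1.97 ± 0.17, 1.66 ± 0.31 and 2.80 ± 0.18, again higher in 4 of 4 libraries. Of all genes tested, 31% were higher in 4 of 4 libraries against macrophages and 29.1% against EDNRA/IGFBP7 cells.

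The smallest of these differences was that of ME1 against fibroblast-gated cells, log2 0.88 ± 0.22 (adjusted p = 0.018, higher in 3 of 3 libraries, as for 29% of genes). Without LL replicate 1 it was 0.61 (adjusted p = 0.15), without TMM scaling 0.56 (adjusted p = 0.11), and the call was also lost with ambiguous luminal cells kept and with no block. ACACA and SCD5 exceeded fibroblast-gated cells by log2 1.65 ± 0.17 (adjusted p = 0.00053) and 1.97 ± 0.29 (adjusted p = 0.0024), and both passed with each library left out. Against RELN cells ACACA differed by log2 1.52 ± 0.44 (adjusted p = 0.039) and was higher in 2 of 3 libraries. This call was lost without LL replicate 1 (1.07, adjusted p = 0.095), without LL replicate 2 (1.30, adjusted p = 0.062) and without TMM scaling (1.23, adjusted p = 0.12), and the difference was 2.22 without LH replicate 2. ME1 and SCD5 had 1 and 3 UMIs in RELN cells, and their ratios of summed levels were 32.4 (5.81 to 1281) and 18.1 (6.18 to 87.8), both past the threshold (adjusted p = 0.0051 and 0.0042). In RELN cells a single library, LH replicate 2, held the ME1 UMI and 2 of the 3 SCD5 UMIs. Without it the fitted log2 differences were 11.25 for ME1 and 5.46 for SCD5, and without LL replicate 1 they were 4.04 and 3.37, against 5.58 and 4.05 with all 3 libraries.

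**Figure D2:**
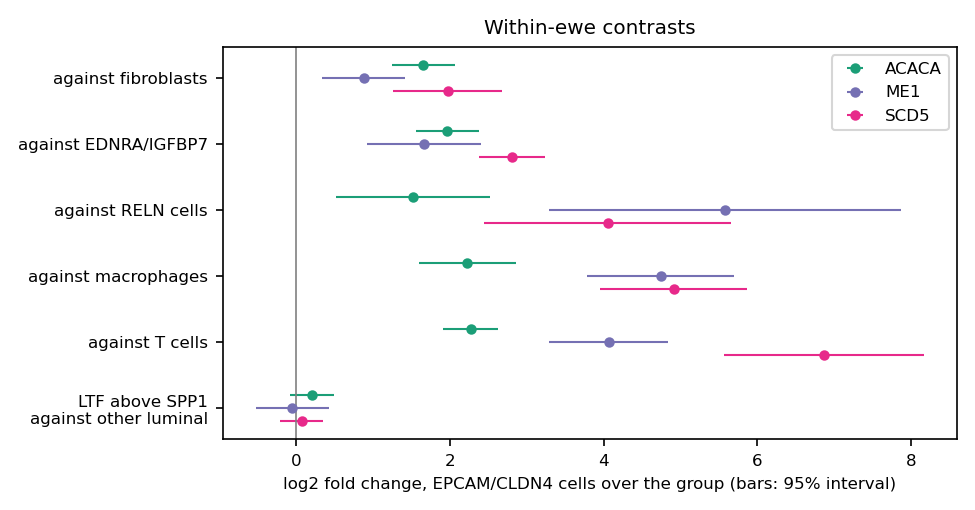
Fitted log2 fold change (horizontal axis) of luminal cells over each gated group within ewes, and of luminal cells with LTF above SPP1 over the other luminal cells; points are edgeR estimates and bars their 95% intervals. All 3 enzymes lie right of 0 against the 5 non-luminal groups, and their intervals include 0 in the bottom row.

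Part of any share of cells with a UMI comes from depth, so each cell was also thinned to 1000 UMIs. ACACA was then found in 9.73% and 9.63% of luminal cells in LH and 13.9% and 13.3% in LL, against 1.51% to 2.88% of T cell-gated cells. Without thinning the luminal shares were 47.4% to 57.2%. ME1 was found in 1.00% and 1.14% of thinned luminal cells in LH and 3.49% and 2.64% in LL, and in fibroblast-gated cells in 1.85% in LH replicate 1, 2.32% in LL replicate 1 and 1.83% in LL replicate 2. Thinned to 2000 UMIs, the luminal shares of these 3 libraries were 2.61%, 6.5% and 5.80% and the fibroblast shares 1.56%, 3.99% and 4.02%. LL luminal shares thus lay above the fibroblast shares at both depths. In LH replicate 1 the order turned between depths, with 3 or 4 fibroblast-gated cells behind each share, and was not settled. T cell-gated cells gave 0% to 0.321%. SCD5 was found in 2.40% to 4.14% of thinned luminal cells and in at most 0.377% of T cell-gated cells, with 0 of 1410 in LH replicate 1, which allows up to 0.213%. All 3 enzymes had a UMI in 4.42% and 4.33% of unthinned luminal cells in LH and in 2.84% and 6.69% in LL.

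**Figure D3:**
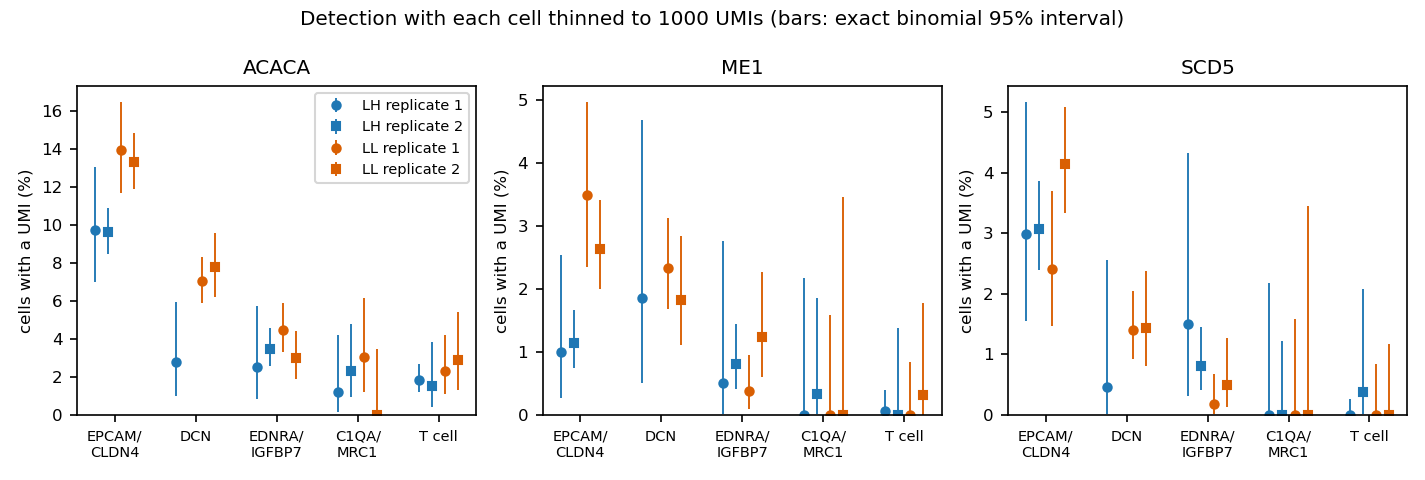
Share of cells that held at least 1 UMI (vertical axis, percent) after thinning every cell to 1000 UMIs, by gated group and library; bars are exact Clopper-Pearson 95% intervals and cover counting error only. Luminal ACACA shares sit at 9.63% to 13.9%, and T cell-gated shares at 1.51% to 2.88%.

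The split by LTF and SPP1 gave no difference past the threshold for the 3 enzymes. ACACA in luminal cells with LTF above SPP1 was 103 CPM in LH replicate 2, 204 CPM in LL replicate 1 and 146 CPM in LL replicate 2, and in the other luminal cells of those libraries 107, 175 and 164 CPM. ME1 was 10.7, 36.0 and 28.2 CPM against 16.7, 50.5 and 25.6 CPM. SCD5 was 39.5, 24.5 and 43.9 CPM against 44.2, 26.6 and 47.9 CPM. The 34 cells of LH replicate 1 with LTF above SPP1 were too few to be tested and gave 124 CPM of ACACA, 10.2 CPM of ME1 from 6 UMIs and 69.6 CPM of SCD5. The other luminal cells of that ewe gave 139, 20.8 and 60.6 CPM. SCD5 was lower with LTF above SPP1 in the 3 libraries tested, as were 39.6% of all genes, and higher in LH replicate 1, while ACACA and ME1 went either way. None of the 3 passed the threshold, which 0.0817% of 11018 genes did. The differences were log2 0.20 ± 0.12 for ACACA (95% interval -0.08 to 0.48, adjusted p = 0.38), -0.05 ± 0.20 for ME1 (-0.53 to 0.42, adjusted p = 0.91) and 0.07 ± 0.12 for SCD5 (-0.21 to 0.35, adjusted p = 0.78). The sign of the SCD5 value turned to -0.14 without TMM scaling, which moved the median of all genes from 0.01 to -0.20.

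The other luminal cells joined cells with SPP1 above LTF and cells with neither, and these differed in SCD5. This closer split was chosen after the values were seen and is given as a description. SPP1-above-LTF cells had 70.0 and 45.4 CPM of SCD5 in LH, with 40.6 and 55.2 CPM in LL. Cells with neither transcript had 1.66 and 6.42 CPM in LH (1 and 4 UMIs), with 12.5 and 20.7 CPM in LL (29 and 20 UMIs), below the SPP1-above-LTF level in 4 of 4 libraries. ACACA was likewise lower in cells with neither, at 71.4 and 78.7 CPM against 150 and 108 CPM in LH, while LL gave 96.4 and 74.5 CPM against 257 and 189 CPM. ME1 did not follow: cells with neither had 21.6, 33.7 and 62.2 CPM in LH replicates 1 and 2 and LL replicate 1, against 20.5, 16.2 and 39.7 CPM, and 5.17 (5 UMIs) against 29.4 CPM in LL replicate 2. The share of all genes lower in cells with neither in 4 of 4 libraries was not counted. The cells with neither were shallower, with median UMIs of 2922 to 4600 against 8418 to 12980, and held 372 to 2715 CPM of T and NK cell markers against 18.7 to 105 CPM, and the part of these in the differences was not tested. With those cells left out, LTF-above-SPP1 cells against the remaining cells gave log2 -0.12 for ACACA (adjusted p = 0.51) and -0.25 for SCD5 (adjusted p = 0.37), both turned in sign.

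**Figure D4:**
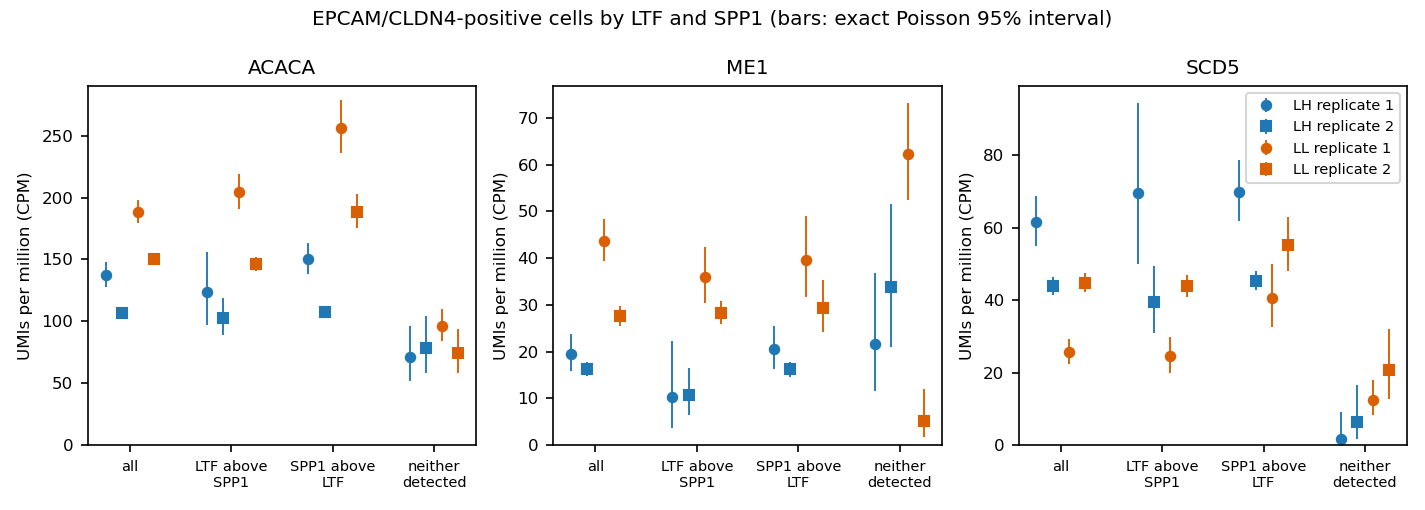
Level of each enzyme (vertical axis, CPM) in all luminal cells and in those with LTF above SPP1, SPP1 above LTF or neither detected, by library; bars are exact Poisson 95% intervals and cover counting error only. SCD5 in cells with neither sits at 1.66 to 20.7 CPM, below each library's level in the SPP1-above-LTF cells.

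IDO1/IGFBP6 cells were too few for any comparison, with 18 and 8 of them in LH, against 8 and 1 in LL. In LH replicate 1 they gave 80.1 CPM of ACACA (17 UMIs), 9.43 CPM of ME1 (2 UMIs) and 118 CPM of SCD5 (25 UMIs, exact Poisson 95% interval 76.2 to 174 CPM). In LH replicate 2 they gave 173 CPM of ACACA (36 UMIs), 72.0 CPM of ME1 (15 UMIs, 40.3 to 119 CPM) and 19.2 CPM of SCD5 (4 UMIs). The libraries thus went opposite ways for ME1 and SCD5, and the intervals of the 2 libraries did not overlap for either gene. These intervals cover counting error only and not the spread between cells, so they do not show a difference between the ewes. In LL replicate 1 these cells held 1 ACACA UMI, no ME1 UMI and 2 SCD5 UMIs. The gate also took cells that passed the luminal gate. The sum of 11 luminal markers in it was 3096 and 6583 CPM in LH and 317.5 CPM in LL replicate 1. In luminal cells it was 6260 to 10120 CPM.

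Between stages, luminal cells of both LL ewes had more ACACA and more ME1 than those of both LH ewes. ME1 was at 17.9 ± 2.35 CPM in LH and 35.6 ± 11.3 CPM in LL (SD, n = 2 each), a log2 difference of 1.04 ± 0.26 (SE, 95% interval 0.36 to 1.71) or 2.05-fold. ACACA was at 122 ± 21.9 CPM in LH and 170 ± 27.1 CPM in LL, a log2 difference of 0.53 ± 0.19 (0.03 to 1.03) or 1.44-fold. SCD5 lay the other way on average, at 52.8 ± 12.5 CPM in LH and 35.2 ± 13.6 CPM in LL, a log2 difference of -0.49 ± 0.38 (-1.46 to 0.49), and the stages overlapped. None passed the threshold: the edgeR adjusted p was 0.60 for ME1, 0.66 for ACACA and 0.78 for SCD5, and 0.00764% of the 13091 genes tested passed. Of all genes, 16.3% had both LL libraries above both LH ones, and 7.42% of genes had an unadjusted p under 0.05, ACACA and ME1 among them. The thinned shares of ACACA and ME1 were drawn from the same UMIs and add no separate evidence. They too were higher in both LL libraries than in both LH libraries, with 4 of 401 cells behind the ME1 share of LH replicate 1. Genes other than the members were not thinned, so the share of all genes for this rule is not known.

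Fibroblast markers in the luminal gate moved with the stage: the sum of 3 of them (DCN, SFRP2 and SERPINF1) was 11.1 and 3.54 CPM in LH, while LL gave 58.9 and 25.9 CPM, and fibroblast-gated cells 17240 to 19730 CPM; their part in the ACACA and ME1 differences was not tested. Luminal-gated cells with neither LTF nor SPP1 held 372 to 2715 CPM of T and NK cell markers. Without them, an alternative added after the data were seen, the stage differences were log2 0.66 for ACACA, 1.00 for ME1 and -0.46 for SCD5. Leaving out each ewe in turn gave 0.38 to 0.69 for ACACA, 0.77 to 1.28 for ME1 and -1.05 to -0.09 for SCD5; the SCD5 value was smallest without LL replicate 1 and largest without LL replicate 2. In the other luminal cells (LTF not above SPP1), both LL ewes were again above both LH ewes for ACACA and ME1, as for 24.7% of genes, with log2 differences of 0.39 ± 0.20 and 0.95 ± 0.38, and SCD5 was at -0.55 ± 0.35. None passed, as 0.0352% of 11368 genes did. For luminal cells with LTF above SPP1 the minimum was lowered to 30 cells, also after the data were seen. ACACA then differed by log2 0.64 ± 0.23 (adjusted p = 0.40), ME1 by 1.62 ± 0.30 (adjusted p = 0.25) and SCD5 by -0.56 ± 0.41 (adjusted p = 0.68). Here the 34 cells of LH replicate 1 gave 6 ME1 UMIs.

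Outside the luminal cells no stage difference of a member passed either. In T cell-gated cells ACACA was nearly level, at log2 0.14 ± 0.28, with both LL ewes above both LH ewes as for 12.1% of genes; 0.041% of 7317 genes passed there. The T cell value turned to -0.16 without the doublet caller. Macrophage-gated cells lay the other way, with both LL ewes below both LH ewes for ACACA, as for 16.2% of genes, and a log2 difference of -0.63 ± 0.38 (adjusted p = 0.80; 0.0122% of 8201 genes passed). EDNRA/IGFBP7 cells gave log2 0.13 ± 0.24 for ACACA, 0.21 ± 0.45 for ME1 and -0.33 ± 0.66 for SCD5, each with overlapping stages, while 0.0297% of 10114 genes passed; each of the 3 changed sign with some library left out. ME1 and SCD5 did not reach the count minimum in T cell-gated and macrophage-gated cells. Fibroblast-gated cells had 1 LH library with enough cells, and their stages were not tested.

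Whether the stage difference itself differed between luminal and other cells was tested by interaction. The value for ACACA against macrophages was log2 1.21 ± 0.37 (95% interval 0.37 to 2.05, adjusted p = 0.58), the only one of the 9 whose interval left out 0. Against T cells the interactions were 0.44 ± 0.30 for ACACA, 0.89 ± 0.91 for ME1 and -3.08 ± 1.75 for SCD5, the last resting on 3 T cell UMIs. Against EDNRA/IGFBP7 cells they were 0.41 ± 0.32, 0.89 ± 0.55 and -0.19 ± 0.40. No member passed. In the macrophage fit 0.00868% of 11522 genes passed, and in the T cell and EDNRA/IGFBP7 fits 0% of 12205 and 12126 genes passed by edgeR, with 612 and 702 genes at an unadjusted p under 0.05 and 2 and 16 genes past the threshold by DESeq2.

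Other lipid genes were set beside the 3 enzymes from lists of known pathway members, most of which had no symbol in the files. Of 27 genes of fatty acid synthesis, desaturation and elongation, 5 had a symbol: ACACA, SCD5, SCD, ACLY and HACD1. ACACA, SCD5 and SCD were higher in luminal cells than in each of the 5 other gates. SCD, the main desaturase, had 10.3 and 12.95 CPM in luminal cells in LH, with 15.8 and 17.4 CPM in LL, against means of 0.674 to 2.06 CPM in the 5 gates, and exceeded T cells by log2 4.51 ± 0.53 (adjusted p = 0.00018). ACLY, the citrate cleavage enzyme, did not share this: luminal cells had 19.1 CPM and T cell-gated cells 26.0 CPM on average, luminal cells were lower by edgeR (log2 -0.54 ± 0.17, adjusted p = 0.028), and no other gate differed past the threshold. HACD1, an elongation dehydratase, was higher in luminal than in T cell-gated cells (log2 2.47 ± 0.53) and lower than in EDNRA/IGFBP7 (-1.26 ± 0.27) and macrophage-gated cells (-0.82 ± 0.22). SCD, ACLY, HACD1, SLC25A10, PRKAA2, PPARG, LPL and FABP4 lay under the 20 CPM set for naming a gene and were singled out after their values were seen.

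Among 5 of 21 genes of NADPH and citrate supply, luminal cells were higher for 4 against T cells, 3 against macrophages, 4 against fibroblasts, 4 against EDNRA/IGFBP7 cells and 3 against RELN cells, and lower for none. Of all genes tested, 12.4% (RELN) to 32.3% (T cell) were higher in luminal cells. IDH1 was the one beside ME1 and SLC25A10 that passed in all 5, with 213 and 192 CPM in luminal cells in LH, with 120 and 200 CPM in LL, log2 3.54 ± 0.23 above T cells and 0.89 ± 0.22 above EDNRA/IGFBP7 cells. SLC25A10, the mitochondrial dicarboxylate carrier that exports malate, stood at 9.85 CPM in luminal cells on average and at 0 to 2.95 CPM in the 5 gates. PGD, an NADPH-forming enzyme, was higher in luminal than in T cells (log2 1.04 ± 0.21) but did not pass the threshold against macrophages (-0.088 ± 0.20). Of 3 regulators with a symbol, STAT5A, which carries the prolactin signal, was higher in luminal cells than in 4 of 5 gates, as was PRKAA2, a catalytic subunit of the AMP-activated kinase that inhibits acetyl-CoA carboxylase. PPARG, a regulator of fat storage genes, was lower in luminal cells than in all 5 gates, with 7.83 CPM against 207 CPM in EDNRA/IGFBP7 cells (log2 -4.76 ± 0.33). Of the uptake and assembly genes, 5 of 30 had a symbol. Luminal cells were lower for 2 of the 4 tested against T cells, 3 of 4 against macrophages, 3 of 4 against EDNRA/IGFBP7 cells and 2 of 4 against RELN cells, and higher for none. Against fibroblasts, 1 of 5 was higher and 1 lower. Of all genes tested, 28.3% were lower in luminal cells against T cells, 22.2% against macrophages and 26.1% against EDNRA/IGFBP7 cells. Against RELN cells 9.38% were lower, and against fibroblasts 22.7%. FABP5, a fatty acid carrier, stood at 55.9 CPM in luminal cells, below the 684 CPM of EDNRA/IGFBP7 cells and above the 12.85 CPM of fibroblast-gated cells (log2 2.07 ± 0.24). LPL, lipoprotein lipase, stood at 1.97 CPM in luminal, 7.80 CPM in fibroblast-gated and 65.0 CPM in EDNRA/IGFBP7 cells. Adipocyte markers were low in luminal cells, with a sum over 6 of 13 listed genes of 9.71 to 23.5 CPM, and LIPE and FABP4 at 0 in LH replicate 1.

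Between stages, none of the 23 listed lipid genes that could be tested in luminal cells passed the threshold. The median log2 difference was 0.53 for the 5 synthesis genes and 0.14 for the 5 supply genes, which include the members, and 0.15 for the 3 regulators. It was -0.53 for the 5 uptake and assembly genes, -0.61 for the 2 fat droplet genes and -0.17 for the 3 oxidation genes, against -0.01 over all genes. The order of the lists was not kept in the other luminal cells (LTF not above SPP1). Their medians were 0.096 for synthesis, 0.29 for supply, 0.27 for regulators, -0.30 for uptake and assembly, -0.71 for fat droplet and -0.048 for oxidation. In luminal cells as a whole SCD was at log2 0.56 ± 0.27 and SLC25A10 at 0.78 ± 0.25, and for both of these both LL ewes lay above both LH ewes, as for 16.3% of genes. FABP4, another fatty acid carrier, had the highest fitted value, 2.32 ± 1.07, from levels of 0 and 1.88 CPM in LH, against 7.87 and 3.8 CPM in LL. On the other side were LPL at -1.97 ± 0.46, CPT1A, the entry step of mitochondrial fatty acid oxidation, at -1.25 ± 0.22, and ABHD5, a coactivator of triglyceride hydrolysis, at -1.02 ± 0.16, with both LL ewes below both LH ewes each time, as for 23.3% of genes. The adjusted p of these 6 genes and of the others lay above the threshold in every case. IDH1, HADHA, PLIN2, PGD, FABP5 and STAT5A lay between log2 -0.53 and 0.14.

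**Figure D5:**
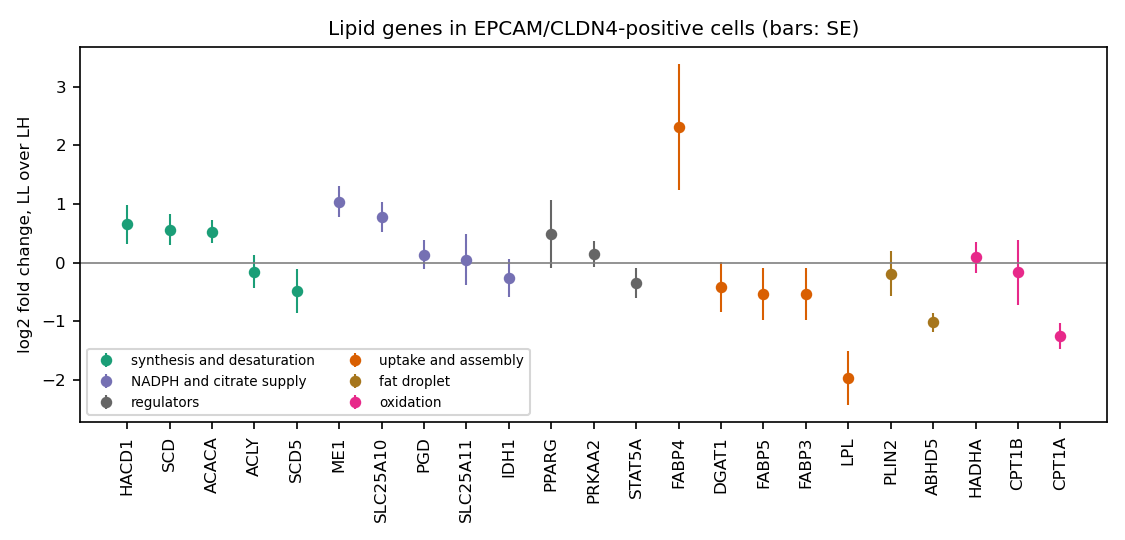
Fitted log2 difference of LL over LH (vertical axis) in luminal cells for each listed lipid gene with a symbol that could be tested (horizontal axis), coloured by list; bars are standard errors from edgeR. ACACA and ME1 lie above 0 and SCD5 below, with FABP4 the highest, LPL, CPT1A and ABHD5 the lowest, and no gene passed the adjusted threshold.

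As a description, genes were ranked by how alike their levels ran to each enzyme over the 26 gate-by-library levels of 8 gates, by Pearson's r of log2(CPM + 5) over 420 genes with a symbol. These points share libraries and include the luminal gate, so a luminal gene scores high. SCD5 ran most like ACACA (r = 0.87), followed by ATXN7L3B, FGF2 and CCL28 (0.83 to 0.82). FGF2 (0.89), BMPR1A (0.86), SCD5 (0.85), TXN (0.82) and ACACA (0.80) were closest to ME1; BMPR1A, a bone morphogenetic protein receptor, had 186 CPM in fibroblast-gated cells beside 138 and 183 CPM in luminal cells with LTF above SPP1 and in the others. FGF2 (0.92), PRDX2 (0.88), TFAP2A (0.88), ACACA (0.87) and CLDN7 (0.87) were closest to SCD5. TFAP2A, a transcription factor of epithelium, was at 0 in T cell-gated and RELN cells.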

How the data were processed

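UMI counts per gene and cell barcode were used as deposited, without normalization; per the file headers they were written by Cell Ranger 7.2.0, while the submitters' processing notes name Cell Ranger 5.0.1, STAR and Seurat 3.2.0. The genome build is not given in the sources used here, nor is the annotation, so no coordinates or sequences are printed. Libraries were grouped by their titles. Barcodes with over 20% mitochondrial UMIs (13 genes) were left out, as were the highest Scrublet scores of each library at 0.8% per 1000 barcodes (scanpy 1.11.5), because the automatic threshold called 1 of 5955 barcodes in LH replicate 1. This left 5570, 8657, 11344 and 10038 cells. Gates needed 1 UMI (EPCAM or CLDN4; IDO1 together with IGFBP6 or CCN2), 2 UMIs (T cell, macrophage, SELP/SELE/KDR, RELN; EDNRA at 1 with IGFBP7 at 2) or 20 DCN UMIs per 10000; cells passing 2 gates (5.07% to 7.10%) were left out, except that luminal cells passing the IDO1 gate counted there. TPSB2 mast cells (34 in all) were not used.

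Counts were summed per library and gate and tested with edgeR 4.0.16 in R 4.3.3 (TMM, filterByExpr with a minimum count of 10, quasi-likelihood test, Benjamini-Hochberg adjusted p under 0.05 over all genes of a fit), with the ewe as a block between gates and no block between stages; the script was tested on simulated data. Printed CPM use unscaled totals, and fold changes TMM-scaled ones. Precision rests on 2 ewes per stage; Poisson and Clopper-Pearson 95% intervals, and the limit of 3 counts for a count of 0, cover counting error only. Listed genes other than the members were to be named from 20 CPM in luminal cells, at most 15. The members, gates and lists were chosen with earlier results of these data known. One gene of the supply list and one of the genes ranked closest to ACACA are not reported here.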

Additional observations from a re-analysis of the deposited data

How the results depend on the processing

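Settings tried were DESeq2 1.42.0, library totals without TMM, no filter on low counts, EPCAM and CLDN4 at 2 UMIs or more, ambiguous luminal cells kept, no doublet caller, 10% mitochondrial UMIs, 1000 UMIs per cell, the replicate block or its absence, and each replicate left out; 2 were added after seeing the data (30 cells as minimum, and luminal cells with neither LTF nor SPP1 left out). Luminal ACACA, ME1 and SCD5 kept their stage direction in every one of them, none past the threshold. All calls of ACACA, ME1 and SCD5 against T cells, macrophages and EDNRA/IGFBP7 cells, and those of SCD5 and ACACA against fibroblasts, held in every setting run. ME1 against fibroblasts was no longer past the threshold without TMM (log2 0.56), with ambiguous luminal cells kept (0.62) and with no replicate block (0.86), and without each replicate it ran from 0.61 to 1.02. ACACA against RELN cells was no longer past it without TMM (1.23) and with EPCAM and CLDN4 at 2 UMIs (1.54), and without each replicate it ran from 1.07 to 2.22. Direction turned for LTF-above-SPP1 cells against the others in ACACA (-0.12) and SCD5 (-0.25) with cells with neither left out and in SCD5 (-0.14) without TMM, and ME1 ran from -0.38 to 0.080 without each replicate. It also turned for the stage difference of ACACA in T cells without the doublet caller (-0.16), and for 3 interactions: ME1 against macrophages (-0.10) and SCD5 against EDNRA/IGFBP7 cells (0.40) with EPCAM and CLDN4 at 2 UMIs, and SCD5 against macrophages without the doublet caller (0.35). In EDNRA/IGFBP7 cells the stage difference without each replicate ran from -0.041 to 0.46 for ACACA, from -0.24 to 0.61 for ME1 and from -1.12 to 0.19 for SCD5. The cause was not tested. RELN cells with at least 1000 UMIs left too few libraries of 50 cells and were not run.

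Counts of genes past the threshold moved more. LL against LH gave 1 gene in luminal cells by edgeR and 158 by DESeq2, 7 without the filter, 2 without the doublet caller or at 10% mitochondrial UMIs, 0 with the replicate block, and 0 to 3 with a replicate left out. LTF-above-SPP1 against the other luminal cells gave 9 genes, 268 by DESeq2, 1175 without the filter, 2 without TMM, 0 with no replicate block, and 0 (without LL replicate 2) to 1944 (without LH replicate 2). Stage counts with a replicate left out ran from 21 to 124 in T cells, 1 to 119 in macrophages and 0 to 318 in EDNRA/IGFBP7 cells, against 3, 1 and 3. The shared replicate numbers are not said to pair ewes, and with 2 pairs (r = 0.16 for the deviations from the stage means) they were taken as numbers only. Leaving out TMM moved the median of all genes from 0.07 to -0.24 against fibroblasts, from 0.03 to 0.14 against T cells, from 0.02 to -0.10 against EDNRA/IGFBP7 cells and from 0.09 to -0.18 against RELN cells. Depth limited ME1 and SCD5 in immune and RELN cells, where 1 to 11 UMIs stand behind a level.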

Other observations

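Luminal cells were also divided by other transcripts after the values were seen, as descriptions with no test. Luminal cells with at least 2 UMIs of IGFBP6, an IGF-binding protein, numbered 58 and 175 in LH and 98 and 65 in LL. They had less ACACA than the remaining luminal cells in all 4 libraries, at 121 against 140 CPM and 99.7 against 107 CPM in LH and 141 against 197 CPM and 67.9 against 154 CPM in LL. ME1 was also lower in all 4, at 5.58 against 21.9 CPM and 13.3 against 16.6 CPM in LH and 23.9 against 46.9 CPM and 7.21 against 28.5 CPM in LL. SCD5 was not: it was 85.1 against 57.8 CPM in LH replicate 1 and 47.8 against 22.0 CPM in LL replicate 1, and within 1 CPM of the rest in LH replicate 2 (43.9 in both) and LL replicate 2 (44.3 against 44.8). The exact Poisson 95% intervals overlapped for ACACA in LH replicates 1 and 2 and for ME1 in LH replicate 2, and not in the other libraries. The ME1 values of LH replicate 1 and LL replicate 2 rest on 4 and 7 UMIs. The share of all genes lower in the IGFBP6 cells of all 4 libraries was not counted. Fibroblast markers were higher in the IGFBP6 cells of LL replicates 1 and 2 (99.6 against 52.3 CPM and 110 against 22.2 CPM), and their part in these values was not tested.

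In LL replicate 1, 164 luminal cells held at least 5 UMIs of casein genes and LALBA, the secretory products of milk; the other libraries had 1 to 16 such cells. Those 164 cells had 244 CPM of ACACA against 164 CPM in the rest of the luminal cells of that ewe, 49.0 against 41.2 CPM of ME1, and 8.23 CPM of SCD5 (22 UMIs) against 33.4 CPM. Their median depth was 12520 against 7033 UMIs. Luminal cells rich in PAEP, the gene of the whey protein beta-lactoglobulin (at least 10 per 10000 UMIs), had less ACACA than the rest in LH (125 against 140 CPM and 86.2 against 112 CPM), more in LL replicate 1 (227 against 160 CPM) and less in LL replicate 2 (141 against 162 CPM).

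Cells that passed no gate made up 41.7% to 48.9% of the kept cells and were the largest group in each library. They had 40.7 to 51.7 CPM of ACACA, 2.55 to 9.04 CPM of ME1 and 6.08 to 11.8 CPM of SCD5 in the 4 libraries. Their T and NK cell markers summed to 703 to 2081 CPM, and EDNRA and IGFBP7 to 198.5 to 1418 CPM.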
